A study of Rattus norvegicus with 6 samples.

Results

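A set of 8 miRNAs known from myeloid cells, NF-κB signaling and tissue injury were looked up by name in the read counts of the rat peri-infarct cortex, and 7 of them were among the 493 mature miRNAs of the count table. They were rno-miR-155-5p, rno-miR-146a-5p, rno-miR-146b-5p, rno-miR-142-3p, rno-miR-142-5p, rno-miR-223-3p and rno-miR-21-5p. The eighth listed name, rno-miR-21-3p, was not analysed here. All 7 passed the filter on low counts, which left 452 miRNAs to test. The small RNA came from the cortex around the infarct of male Sprague-Dawley rats weighing 250 to 270 g, with 3 rats for MCAO, 3 for MCAO + rTMS and 1 library for each rat. In all 6 rats the right middle cerebral artery was closed by a filament for 90 min and then reperfused. MCAO tissue was taken at day 7. For MCAO + rTMS the sample notes give no day of collection, and the paper dates its list of changed miRNAs to day 7. The MCAO + rTMS rats also received 10 Hz repetitive transcranial magnetic stimulation (rTMS, magnetic pulses from a coil above the head) for 10 min per day on 7 days. Both groups were injured, so the comparison is between injured cortex with and without stimulation, and no library of uninjured cortex was analysed here.

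miRNAs are short RNAs that bind messenger RNAs mainly through the seed, bases 2 to 8 from the 5′ end, and lower the output of their targets. NF-κB is a transcription factor that is switched on when macrophages or microglia sense damage or microbes. It induces miR-155, which favors inflammatory output, and miR-146a, which restrains it by targeting the signaling proteins TRAF6 and IRAK1. miR-142 is made almost only in blood-forming lineages, including microglia, miR-223 is typical of neutrophils and other myeloid cells, and miR-21 is induced in many injured tissues.

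The mature sequences show which of these miRNAs share a seed and which are alike beyond it. Sequences are from RefSeq (build GRCr8), written 5′ to 3′ with the seed in capitals.
rno-miR-155-5p: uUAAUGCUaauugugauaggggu
rno-miR-146a-5p: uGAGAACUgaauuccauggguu
rno-miR-146b-5p: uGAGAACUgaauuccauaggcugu
rno-miR-142-3p: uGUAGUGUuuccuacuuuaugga
rno-miR-142-5p: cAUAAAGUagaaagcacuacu
rno-miR-223-3p: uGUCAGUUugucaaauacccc
rno-miR-21-5p: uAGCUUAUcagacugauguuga

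Only the miR-146 pair had a common seed. Their first 17 bases were identical, and over the 22 bases of miR-146a-5p they differed by G18A and U21C, with positions counted from the 5′ end and the base of miR-146a-5p first. miR-146b-5p was 2 bases longer. Among the 414 tested miRNAs with a mature sequence in the same RefSeq table, none outside the set had one of these seeds. miR-142-3p and miR-142-5p are cut from the 2 sides of a single hairpin.

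Library totals lay between 10492610 and 15411620 reads. Levels are given as CPM, the count per 1000000 reads of the library total after multiplication with its TMM factor, always in the order of replicates 1, 2 and 3. Tests are the quasi-likelihood test of edgeR, with p-values adjusted by Benjamini-Hochberg over all 452 miRNAs, and measure the spread between these rats. The TMM factors of the groups did not overlap (1.16 to 1.39 in MCAO, 0.695 to 0.864 in MCAO + rTMS), and MCAO + rTMS replicate 3 had the lowest factor and the most miRNAs listed at 0 (77). The log2 fold change of MCAO + rTMS over MCAO had a median of -0.21 across all tested miRNAs when TMM factors were used and of -0.80 when plain library totals were used. Results for the set are therefore given on both scales. Values of other miRNAs are on the TMM scale unless stated. The tissue carried the miRNAs of neural cells at high levels: miR-124-3p, a neuronal miRNA, was at 5318 ± 723 CPM in MCAO and 3793 ± 849.9 CPM in MCAO + rTMS (SD, n = 3).

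Of the 7 inflammatory miRNAs 4 were lower in MCAO + rTMS than in MCAO with an adjusted p under 0.05 (edgeR, Benjamini-Hochberg): miR-155-5p, miR-142-3p, miR-142-5p and miR-223-3p. Of all tested miRNAs, 28.1% were lower and 27.2% were higher by the same rule. The count of 4 fell to 2 without MCAO replicate 1 or 2 or MCAO + rTMS replicate 1 or 2. In that order 87 of 455, 91 of 467, 110 of 469 and 84 of 467 tested miRNAs were lower, against 127 of 452 in the main fit. The count was 3 without MCAO replicate 3 (101 of 456 lower) or MCAO + rTMS replicate 3 (131 of 468 lower). With a two-sample test of equal variances it was 2 (99 of 452 lower). In these fits miR-142-3p or miR-142-5p or both were lost, and miR-155-5p and miR-223-3p were called. None of the 7 was higher, and all 7 log2 fold changes were below 0. The median of the 7 was -1.17, against -0.21 for all tested miRNAs. The set and the lists below were chosen with earlier results of these data known, so comparisons with all tested miRNAs are descriptions. With library totals all 7 were lower by the same test, where the background was 46% lower and 12.2% higher, and the medians were -1.82 and -0.80. On either scale, 6 of the 7 lay below the median of all tested miRNAs, and miR-146b-5p lay above it. The groups did not overlap, with every MCAO + rTMS library below every MCAO library, for 4 of the 7 with TMM factors (background 36.1%) and for 7 of the 7 with library totals (background 55.3%). As these were bulk samples, fewer cells of a type and less RNA per cell cannot be told apart.

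**Figure D1:**
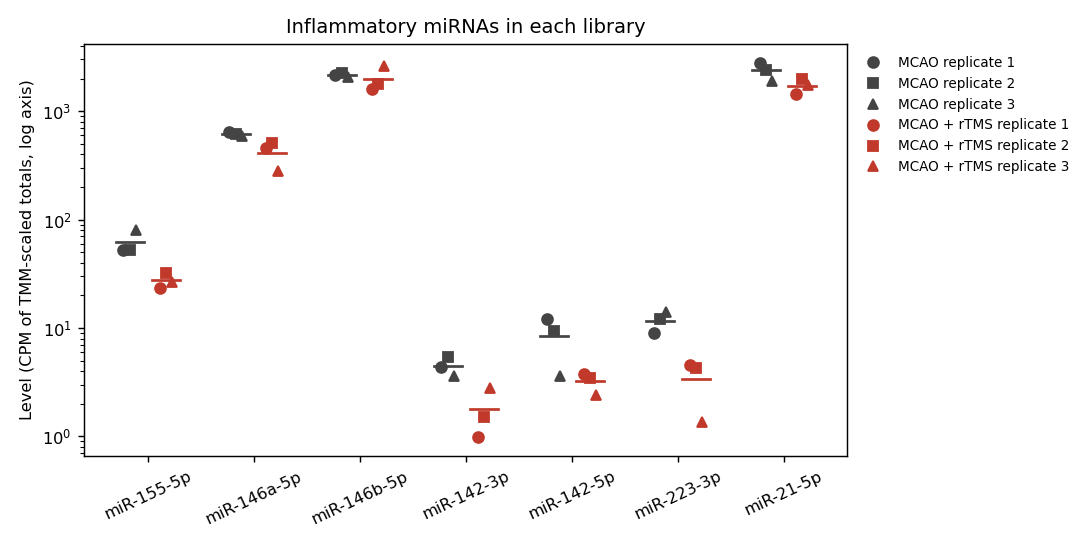
Level of each inflammatory miRNA (CPM of TMM-scaled totals, log axis) in the 3 MCAO libraries (gray) and the 3 MCAO + rTMS libraries (red). Marker shapes stand for replicates 1, 2 and 3 and horizontal lines for group means. The groups are apart for miR-155-5p, miR-146a-5p, miR-142-3p and miR-223-3p, and overlap for miR-146b-5p, miR-142-5p and miR-21-5p.

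miR-155-5p, the NF-κB-induced miRNA that represses the cytokine brake SOCS1, was at 52.5, 52.3 and 80.5 CPM in the MCAO rats. In the stimulated rats it was at 23.4, 32.5 and 26.6 CPM. All stimulated rats were below all MCAO rats, and MCAO replicate 3 stood above the other MCAO libraries. The log2 fold change was -1.17 (SE 0.24, adjusted p = 0.0064, edgeR with Benjamini-Hochberg), a level 2.25-fold lower, with a 95% interval from -1.73 to -0.60. Measured against the median of all tested miRNAs the difference was -0.96 on the TMM scale and -1.02 on the scale of library totals. Scaled by library totals alone, the levels were 62.9, 60.4 and 112 against 20.2, 28.1 and 18.5 CPM. The call held in all 17 alternative fits, with log2 fold changes between -1.82 and -0.91.

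The miR-146 pair, of which miR-146a is induced by NF-κB, did not pass the test with TMM factors. miR-146a-5p was at 640, 620 and 594 CPM in the MCAO rats and at 457, 507 and 279 CPM in the stimulated rats. The MCAO libraries were within 1.08-fold of each other and all lay above the stimulated libraries, among which replicate 3 was the lowest. The log2 fold change was -0.58 (SE 0.25, adjusted p = 0.078, edgeR with Benjamini-Hochberg), and its 95% interval ran from -1.15 to -0.0046. Without MCAO + rTMS replicate 3 it was -0.34 (SE 0.13, adjusted p = 0.071 by the same test). Scaled by library totals alone, the levels were 767, 717 and 827 against 394, 438 and 194 CPM, and the log2 fold change was -1.17 (adjusted p = 0.013, edgeR with Benjamini-Hochberg).

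miR-146b-5p was at 2144, 2271 and 2089 CPM in the MCAO rats and at 1606, 1770 and 2631 CPM in the stimulated rats. Here replicate 3 was the highest of all 6 libraries and the groups overlapped. This gave a log2 fold change of -0.11 (SE 0.22, adjusted p = 0.69, edgeR with Benjamini-Hochberg), with a 95% interval from -0.64 to 0.41. Without MCAO + rTMS replicate 3 it was -0.34 (SE 0.13, adjusted p = 0.066 by the same test), the same size as for miR-146a-5p. Scaled by library totals alone, the levels were 2568, 2623 and 2911 against 1386, 1530 and 1830 CPM, which no longer overlapped. The log2 fold change was then -0.77 (adjusted p = 0.0084, edgeR with Benjamini-Hochberg), close to the -0.80 of the median of all miRNAs on that scale.

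A ratio of 2 counts within a library does not depend on the scaling. miR-146a-5p had 0.299, 0.273 and 0.284 reads for each read of miR-146b-5p in the MCAO rats. In MCAO + rTMS the ratio was 0.284 and 0.286 in replicates 1 and 2 and 0.106 in replicate 3. The 5 other libraries thus lay within a narrow band, and replicate 3 alone was far below it. The difference in mean log2 ratio between the groups was -0.48 (exact permutation test, two-sided, p = 0.6, adjusted p = 0.8 over 2 ratios, where 3 against 3 cannot go below 0.1). Without replicate 3 the difference was 0.0012. The ratio of miR-146b-5p to its partner arm miR-146b-3p was 120 in that library, and between 119 and 155 in the others. How the authors' counting divided reads between the pair is not given in the sources used here, and its part in this ratio was not tested.

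**Figure D2:**
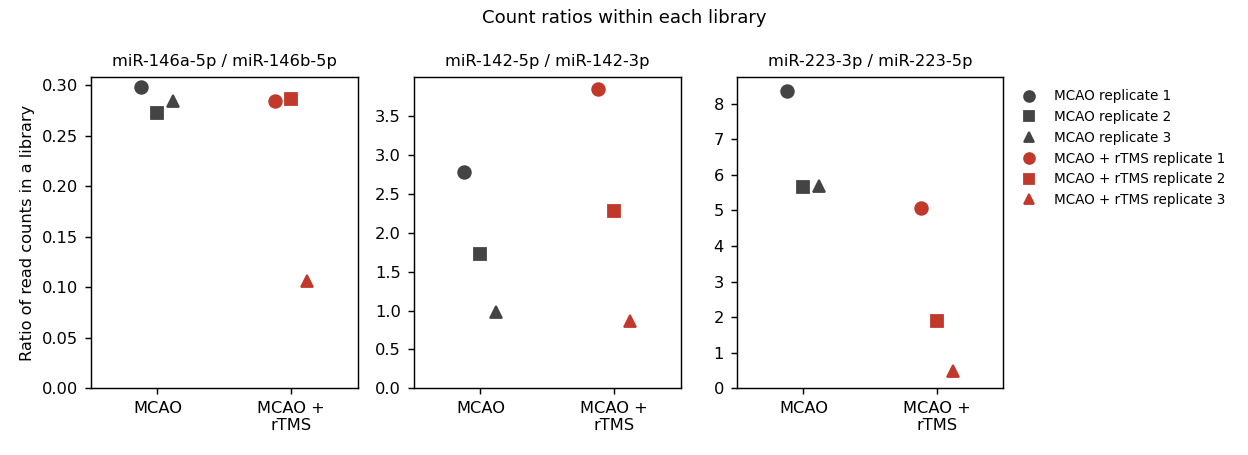
Ratios of raw read counts within each library for miR-146a-5p to miR-146b-5p, miR-142-5p to miR-142-3p and miR-223-3p to miR-223-5p (linear axes from 0), with MCAO in gray and MCAO + rTMS in red and marker shapes for replicates. The miR-146 ratio is between 0.273 and 0.299 in 5 libraries and 0.106 in MCAO + rTMS replicate 3.

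miR-142, the hairpin restricted to blood-forming lineages, had few reads on both arms. miR-142-3p had 69, 66 and 58 reads in the MCAO rats (4.39, 5.45 and 3.63 CPM) and 13, 18 and 29 reads in the stimulated rats (0.978, 1.52 and 2.82 CPM). Every stimulated library was below every MCAO library. With library totals the log2 fold change was -2.01 (adjusted p = 0.0043, edgeR with Benjamini-Hochberg). With TMM factors it was -1.35 (SE 0.44, adjusted p = 0.033, edgeR with Benjamini-Hochberg), with a 95% interval from -2.37 to -0.33. The call was lost when MCAO replicate 1, 2 or 3 or MCAO + rTMS replicate 1 or 2 was left out (adjusted p = 0.085, 0.10, 0.051, 0.078 and 0.11 in that order, same test), and held without MCAO + rTMS replicate 3 (-1.82, adjusted p = 0.0077, same test).

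miR-142-5p had 192, 114 and 57 reads in the MCAO rats (12.2, 9.41 and 3.57 CPM) and 50, 41 and 25 reads in the stimulated rats (3.76, 3.46 and 2.43 CPM). With TMM factors MCAO replicate 3 fell inside the range of the stimulated rats, so the groups overlapped. Scaled by library totals alone, the groups did not overlap, and the log2 fold change was -1.94 (adjusted p = 0.0090, edgeR with Benjamini-Hochberg). On the TMM scale the difference in log2 level was -1.38 (SE 0.46, adjusted p = 0.036, edgeR with Benjamini-Hochberg), with a 95% interval from -2.44 to -0.31. Only without MCAO replicate 3 did the call hold (-1.72, adjusted p = 0.0080, same test). Leaving out MCAO replicate 1 or 2 or MCAO + rTMS replicate 1, 2 or 3 gave adjusted p = 0.13, 0.11, 0.065, 0.11 and 0.091 in that order in the edgeR test.

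The arms of miR-142 did not keep a fixed ratio. There were 2.78, 1.73 and 0.983 reads of miR-142-5p for each read of miR-142-3p in the MCAO rats, and 3.85, 2.28 and 0.862 in the stimulated rats. The spread within each group was larger than the difference between groups, which was 0.23 on the log2 scale (exact permutation test, two-sided, p = 0.8, adjusted p = 0.8). Leaving out MCAO replicate 3 or MCAO + rTMS replicate 1 turned its sign (-0.16 and -0.26).

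miR-223-3p, the myeloid miRNA that limits granulocyte production, had the lowest log2 fold change of the 7. It had 142, 147 and 222 reads in the MCAO rats (9.04, 12.1 and 13.9 CPM) and 61, 51 and 14 reads in the stimulated rats (4.59, 4.30 and 1.36 CPM). The groups did not overlap, and MCAO + rTMS replicate 3 was the lowest library. The log2 fold change was -1.76 (SE 0.43, adjusted p = 0.012, edgeR with Benjamini-Hochberg), a level 3.39-fold lower, with a 95% interval from -2.77 to -0.75. It ranked 45 from the lowest among the 452. Without MCAO + rTMS replicate 3 it was -1.37 (SE 0.27, adjusted p = 0.0073, same test), and with library totals it was -2.35 (adjusted p = 0.0066, same test).

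The other arm of that hairpin, miR-223-5p, did not pass the test. It had 17, 26 and 39 reads in MCAO and 12, 27 and 29 reads in the stimulated rats, with a log2 fold change of 0.072 (SE 0.53, adjusted p = 0.92, edgeR with Benjamini-Hochberg). The ratio of miR-223-3p to miR-223-5p, looked at after the values had been seen and not tested, was 8.35, 5.65 and 5.69 in MCAO and 5.08, 1.89 and 0.483 in the stimulated rats. In MCAO + rTMS replicate 3 the 5p arm was thus read more often than the 3p arm. With at most 39 reads on the 5p arm these ratios have a wide counting error. Of the 4 partner arms listed for the set, miR-146b-3p also did not pass, with -0.0097 (adjusted p = 0.98, edgeR with Benjamini-Hochberg), miR-146a-3p was below the filter and miR-155-3p was not analysed here. With library totals miR-146b-3p was lower, at -0.67 (adjusted p = 0.044, same test).

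miR-21-5p, the injury-induced miRNA, was at 2800, 2423 and 1914 CPM in the MCAO rats and at 1453, 1968 and 1747 CPM in the stimulated rats. The ranges overlapped at MCAO replicate 3 and MCAO + rTMS replicate 2. This gave a log2 fold change of -0.47 (SE 0.21, adjusted p = 0.096, edgeR with Benjamini-Hochberg), with a 95% interval from -0.96 to 0.030. Scaled by library totals alone, the levels were 3355, 2799 and 2668 against 1254, 1701 and 1215 CPM, so the groups did not overlap, and the log2 fold change was -1.08 (adjusted p = 0.0037, same test). Relative to the median of all tested miRNAs it was -0.26 on the TMM scale and -0.28 on the other, so the position of miR-21-5p among all miRNAs moved little while its call changed.

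**Figure D3:**
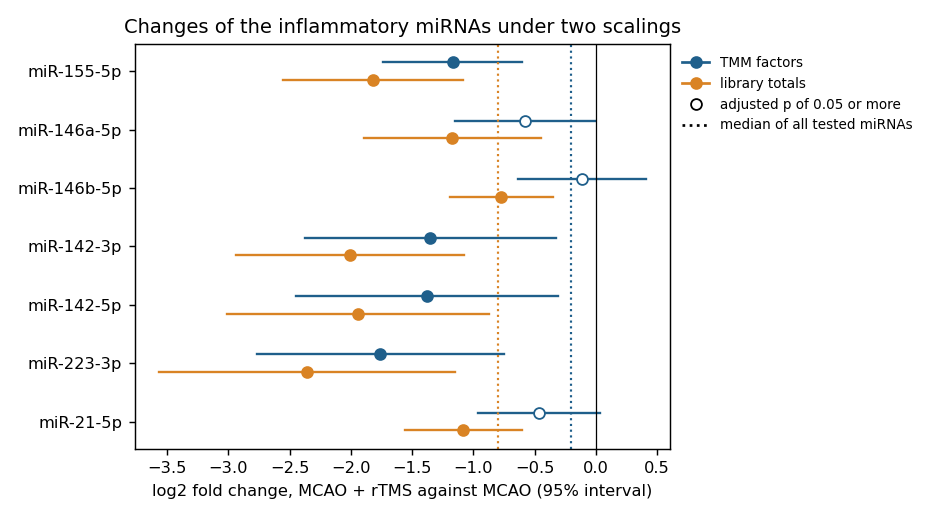
log2 fold change between MCAO + rTMS and MCAO for the 7 miRNAs, with 95% intervals, with TMM factors (blue) and library totals (orange). Filled points have an adjusted p under 0.05, dotted lines are the medians of all 452 tested miRNAs (-0.21 and -0.80). The 4 filled blue points are miR-155-5p, miR-142-3p, miR-142-5p and miR-223-3p, and all 7 orange points are filled.

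Together the 7 miRNAs took 0.678%, 0.623% and 0.655% of the reads in the MCAO rats and 0.306%, 0.371% and 0.326% in the stimulated rats. Most of these reads were miR-21-5p and miR-146b-5p. A share of reads is on the scale of library totals, where the median log2 fold change of all tested miRNAs was -0.80. On the TMM scale the summed level of the 7 was 4699 to 5663 CPM in MCAO and 3549 to 4691 CPM in MCAO + rTMS.

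Inside a group most pairs of the 7 miRNAs ordered the libraries differently, as did most pairs of all tested miRNAs. The order of the 3 MCAO libraries was the same for 4 of the 21 pairs of these miRNAs (19.0%), and for 19.6% of all pairs of tested miRNAs. In MCAO + rTMS it was the same for 3 of 21 pairs (14.3%), against 17.5% of all pairs. With library totals the shares were 14.3% against 21.5% in MCAO and 23.8% against 20.7% in MCAO + rTMS. These shares are descriptions, since all pairs share the same 3 libraries.

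Single libraries stood high for some of the 7 miRNAs and low for others, as they did among all tested miRNAs. In MCAO, replicate 3 was the highest for miR-155-5p and miR-223-3p and the lowest for the other 5 with TMM factors. Among all tested miRNAs it was the highest for 36.9% and the lowest for 46.0%. In MCAO + rTMS, replicate 3 was the highest for miR-146b-5p and miR-142-3p and the lowest for miR-146a-5p, miR-142-5p and miR-223-3p. The shares of all tested miRNAs were 38.1% and 41.8%. MCAO + rTMS replicate 2 was the lowest for none of the 7, while it was the lowest for 22.6% of all tested miRNAs. The SD of log2(CPM + 1) in MCAO ran from 0.054 for miR-146a-5p to 0.80 for miR-142-5p, and in MCAO + rTMS from 0.22 for miR-21-5p to 0.70 for miR-223-3p.

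**Figure D4:**
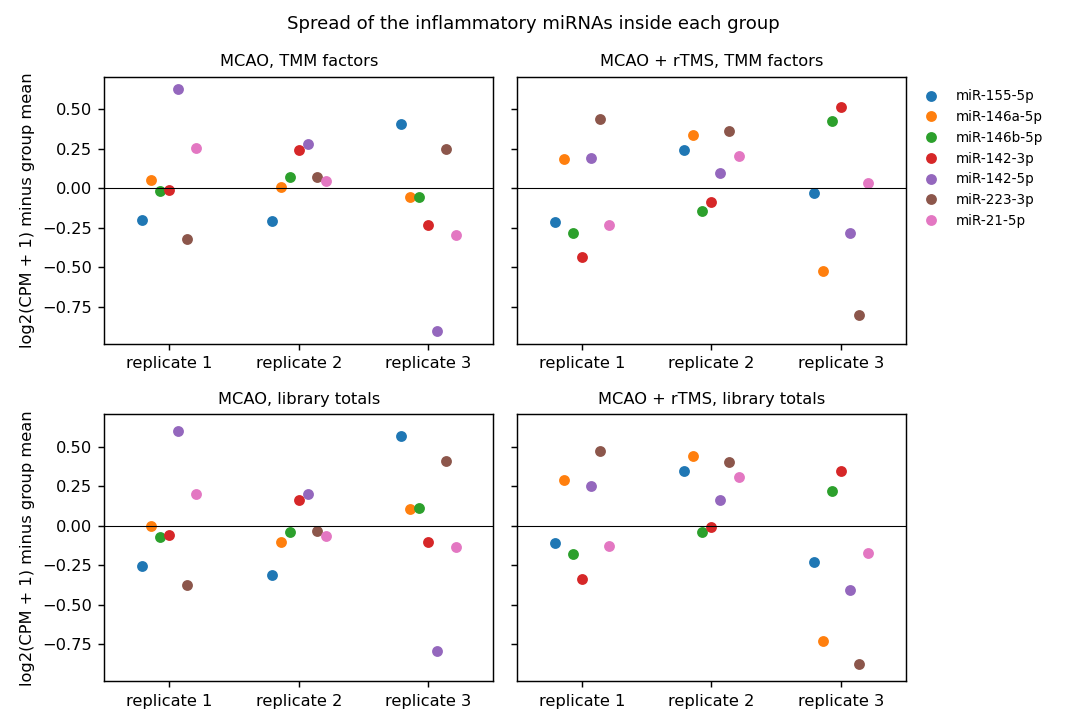
Deviation of each miRNA's log2(CPM + 1) from its group mean in replicates 1, 2 and 3 of MCAO (left) and MCAO + rTMS (right), with TMM factors (top) and library totals (bottom). In each panel points lie on both sides of 0 for every replicate, with the widest spread in replicate 3.

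The profile over the 6 libraries that came closest to miR-155-5p was that of miR-702-3p, followed by miR-342-3p and miR-874-3p. The root mean square difference of centered log2(CPM + 1) was 0.21, 0.21 and 0.26, against a median of 0.69 over 282 miRNAs with a mean count above 200. For miR-21-5p the closest were miR-138-2-3p, miR-340-5p and miR-490-3p (0.15, 0.15 and 0.16, against a median of 0.58). These profiles span both groups, so a like change between the groups brings miRNAs close. They do not measure covariation inside a group.

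Of 10 listed miRNAs common in leukocytes, 8 were in the table and 7 were tested. miR-150-5p, miR-342-3p, miR-17-5p and miR-20a-5p were lower in MCAO + rTMS, each with an adjusted p under 0.05 (edgeR, Benjamini-Hochberg). By the same test miR-150-3p and miR-342-5p were higher. miR-18a-5p was also called lower, but it passed the filter on low counts through its MCAO reads alone, so its call adds no support. Of all tested miRNAs 28.1% were lower and 27.2% higher, so 2 of 7 higher was near the background. The counts of 5 lower, with miR-18a-5p among them, and 2 higher were the same with library totals. There 46% of all were lower and 12.2% higher. Without MCAO + rTMS replicate 3 the count lower was also 5, on the TMM scale, where 131 of 468 tested miRNAs were lower. miR-150-5p, a lymphocyte miRNA, went from 489 ± 58.3 CPM to 280 ± 13.9 CPM (SD, n = 3), with -0.81 as the log2 fold change. miR-17-5p and miR-20a-5p, from a cluster active in dividing cells of many types, had log2 fold changes of -2.10 and -2.14. miR-18a-5p of the same cluster had 13, 19 and 12 reads in MCAO and was listed at 0 in all MCAO + rTMS libraries, where no count between 0 and 10 occurs, so no fold is given. Without it the median of the list was -0.94, against -0.21 for all tested miRNAs.

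Of 22 listed miRNAs that are known to act on inflammatory signaling but are also made by neurons or vessels, 21 were tested. Of these 7 were lower and 2 were higher, and 12 did not pass the test, with a median log2 fold change of -0.35. The share lower was near that of all tested miRNAs (28.1%). Lower were miR-29b-3p (-1.48), miR-181c-5p (-1.38), miR-22-3p (-1.01), miR-24-3p (-0.83), miR-221-3p (-0.82), miR-125b-5p (-0.64) and miR-181a-5p (-0.57), and higher were miR-199a-3p (1.03) and miR-222-3p (0.82). With library totals 13 were lower (46% of all tested) and none was higher: miR-199a-3p was at 0.43 (adjusted p = 0.39) and miR-222-3p at 0.16 (adjusted p = 0.64) in the edgeR test with Benjamini-Hochberg adjustment.

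Markers of other cell types moved as well, in both directions, and their part in the results above was not tested. On the TMM scale the summed level of the 7 neuron miRNAs was 193891 to 264152 CPM in MCAO and 315003 to 521661 CPM in MCAO + rTMS. Most of this was miR-128-3p. With library totals its groups overlapped, with a log2 fold change of 0.039 (adjusted p = 0.83, edgeR with Benjamini-Hochberg). Within that list miR-128-3p (0.69) and miR-129-5p (1.35) were higher and miR-138-5p (-1.65) and miR-137-3p (-2.16) lower with TMM factors. With library totals 1 was higher, miR-129-5p, and 4 were lower. For the 4 oligodendrocyte miRNAs in the table, of 6 names listed, the sum on the TMM scale was 788 to 1062 CPM in MCAO and 1275 to 2576 CPM in MCAO + rTMS. Most of it was miR-219a-2-3p, whose groups overlapped with library totals. Of the 3 tested, 2 were higher with TMM factors, but with library totals none was higher and 1 was lower, and the defining miR-219a-5p had at most 12 reads in any library.

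Vessel, blood and muscle markers did not move one way either. The 6 vessel miRNAs summed to 4973 to 9800 CPM in MCAO and 6382 to 9617 CPM in MCAO + rTMS, with miR-143-3p higher and miR-126a-5p and miR-143-5p lower, while with library totals none was higher and 3 were lower. Of the red blood cell miRNAs, 2 of 5 names were in the table. miR-451-5p was lower (349, 735 and 188 reads in the MCAO rats and 132, 120 and 112 in MCAO + rTMS) with a log2 fold change of -1.61, and miR-486 was higher, with 1.72. The summed level of both was 141 to 302 CPM in MCAO and 513 to 637 CPM in MCAO + rTMS. Of the 5 muscle miRNAs 3 were lower and 2 higher on either scale. On the TMM scale they summed to 108 to 170 CPM in MCAO and 254 to 406 CPM in MCAO + rTMS, where miR-206-3p made up most. With library totals the sums overlapped.

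**Figure D5:**
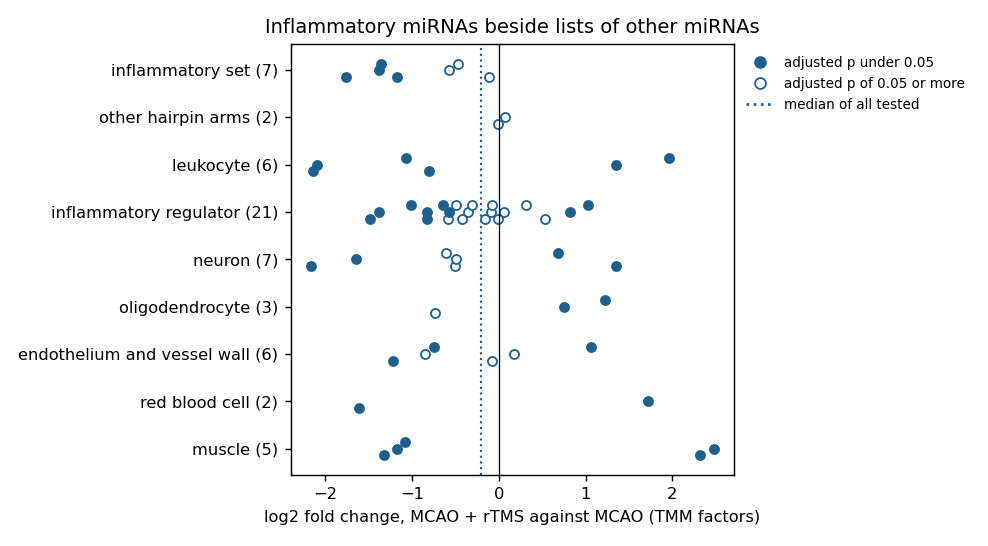
log2 fold change between MCAO + rTMS and MCAO with TMM factors for the tested miRNAs of each list, with the number plotted in parentheses (miR-18a-5p left out). Filled points have an adjusted p under 0.05 and the dotted line is the median of all tested miRNAs. The 7 inflammatory miRNAs lie between -1.76 and -0.11, and every cell type list has points on both sides of 0. The leukocyte points above 0 are miR-150-3p (1.96) and miR-342-5p (1.35), whose partner arms in that list lie below 0. The other hairpin arms listed for the set are plotted apart from it, at -0.0097 and 0.072.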

How the data were processed

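The authors deposited raw read counts per mature miRNA, 1 column per library, without normalization. The submitters' processing notes name bcl2fastq, BWA, DESeq2 and rn6; the counting rule is not given in the sources used here. No count from 1 to 9 occurs. Counts were smallest for miR-142 and miR-223. The test used edgeR 4.0.16 under R 4.3.3, with filterByExpr, TMM factors, quasi-likelihood fits without a block, and Benjamini-Hochberg adjustment over 452 miRNAs. The SE is the log2 fold change divided by the square root of F. Alternatives were other scalings, DESeq2 1.42.0, limma-voom (limma 3.58.1), a two-sample test with equal variances (the kind the study's methods name, here on log2(CPM + 1) with Benjamini-Hochberg adjustment, both chosen for this work), other filters, each 0 set to 9, a replicate block, and each library left out; list counts under 2 settings were added later. The fits were also run on simulated counts with changes drawn equally in both directions. That run cannot decide between the scalings, since the TMM factors of the real groups did not overlap. Named miRNAs are the set, the fixed lists and the 3 nearest profiles. Of 3 ratios planned, that of miR-21-5p to miR-21-3p was not analysed here, so exact p-values were adjusted over 2. Members and lists were chosen with earlier results of these data known. A second deposited table, a selection of the same counts, was not used here. Figures were drawn in Python 3.11.15 with matplotlib 3.10.9. Replicate pairs differed by far more than sampling noise.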

Additional observations from a re-analysis of the deposited data

How the results depend on the processing

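All 7 miRNAs kept their direction in the alternative fits that could test them, except miR-146b-5p, whose log2 fold change ranged from -0.34 to 0.021 over the 6 fits that left out 1 library (0.021 without MCAO + rTMS replicate 1 and 0.0032 without replicate 2). The number lower with an adjusted p under 0.05, 4 with TMM factors, was 7 with library totals only and 2 with the equal-variance two-sample test, where miR-142-3p and miR-142-5p were lost. It was 2 to 3 when 1 library was left out, with fewer residual degrees of freedom. With the replicate block it was 2, and miR-142-3p and miR-223-3p were lost (adjusted p = 0.093 and 0.051 in edgeR). Over all tested miRNAs the number lower was 127 of 452 with TMM factors, 208 with library totals and 99 with the two-sample test. That number was 84 of 467 to 131 of 468 with 1 library left out, and 82 with the replicate block. No alternative made any of the 7 higher with an adjusted p under 0.05. The replicate block lowered the calls over all miRNAs from 250 to 180. The deviations of same-numbered libraries had correlations of 0.20, -0.12 and -0.11 across miRNAs, and not every library correlated best with its own number. miR-155-5p was called in 17 of 17 alternatives and miR-223-3p in 15 of 16. A filter of a mean count above 200 left only 4 of the 7 to test, and miR-146a-5p and miR-21-5p then passed (adjusted p = 0.027 and 0.035 in edgeR), as they also did with upper-quartile factors and library totals. With 1 library left out, the difference in log2 ratio ran from -0.26 to 0.82 for the miR-142 arms (-0.16 without MCAO replicate 3, -0.26 without MCAO + rTMS replicate 1) and from -0.72 to 0.0012 for the miR-146 pair. The cause was not tested. Of the 21 inflammatory regulators 13 were lower with library totals and 7 with TMM factors. miR-142 and miR-223-3p had 13 to 222 reads per library.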

Other observations

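Both arms of the miR-150 hairpin changed, in opposite directions. Such changes were not limited to the leukocyte list. On the TMM scale miR-143-3p was at 1.07 and miR-143-5p at -0.74 (adjusted p = 0.020 and 0.023, edgeR with Benjamini-Hochberg). The arms of miR-126a both had log2 fold changes below 0 (-0.84 for 3p and -1.22 for 5p). The miR-150 pattern is given as a description. This was seen after the values were known and the ratio was not tested. Values are in the order of replicates 1, 2 and 3. miR-150-5p was at 477, 553 and 438 CPM in MCAO and at 282, 265 and 292 CPM in MCAO + rTMS. miR-150-3p was at 4.46, 5.45 and 4.01 CPM in MCAO and at 16.6, 15.3 and 22.3 CPM in MCAO + rTMS, with a log2 fold change of 1.96 (SE 0.24, adjusted p = 0.00079, edgeR with Benjamini-Hochberg). The count ratio of the 5p to the 3p arm, which no scaling can move, was 107, 102 and 109 in MCAO and 17, 17.3 and 13.1 in MCAO + rTMS. For miR-342 the ratio of the 3p to the 5p arm was 17 to 19.0 in MCAO and 2.15 to 4.49 in MCAO + rTMS.

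For miR-146b, by contrast, the ratio of the 5p to the 3p arm overlapped between the groups, at 121, 151 and 146 in MCAO and 119, 155 and 120 in MCAO + rTMS. miR-146a-3p had 10 reads in MCAO replicate 1 and was listed at 0 in the other 5 libraries, so its arm ratio could not be followed.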
